A study of Mus musculus with 20 samples.

Results

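The genes described here are 46 mouse genes that encode lysosomal hydrolases, their cofactors and proteins of the lysosomal membrane. They were taken by symbol from a table of 23402 gene rows, and all 46 were among the 12788 rows with a mean level high enough to test. By role they comprised 10 cysteine proteases, 3 other proteases, 11 glycosidases, 5 sulfatases, 7 genes of lysosomal lipid handling, 2 acid phosphatases, 7 membrane proteins and progranulin. The list was put together with the difference between the treatment groups already known. The group differences of these genes are therefore given as a description. Where a gene is said to have passed the threshold of the whole table, that is part of the description and supports nothing further.

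RNA was measured in 20 libraries of tumours grown under the skin from MC38 cells, a line derived from a mouse colon adenocarcinoma. In 10 libraries (Control) the mice had received vehicle, and in 10 (P.T.ATBx) the treatment was peri-tumoral ATBx. ATBx commonly stands for antibiotics, but the labels give no agent, dose, schedule, mouse strain, sex or age, and name no allele. All 20 tumours came from the same line. Nothing in the labels ties each library to a separate animal, so p-values here reflect only the spread of these samples, part of which may be technical. They call the cell type cancer cell, while the libraries were made from whole tumour tissue and held RNA of other cells too. Ptprc, the pan-leukocyte marker CD45, stood at 44.6 ± 7.61 FPKM in Control and 43.8 ± 9.52 FPKM in P.T.ATBx (mean ± SD, n = 10 each). Epcam, an epithelial marker, stood at 3.70 ± 3.32 and 1.96 ± 0.821 FPKM. In bulk RNA of this kind, fewer cells of a type and less RNA per cell cannot be told apart. FPKM is the number of fragments scaled to gene length and library size, so levels of different genes can be set side by side.

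The lysosome is the acidic organelle in which proteins, glycans, sulfated sugars and lipids are taken apart. Its soluble hydrolases are made in the endoplasmic reticulum, are mostly tagged with mannose 6-phosphate in the Golgi and reach the lysosome through receptors for that tag. Membrane glycoproteins line the organelle, a proton pump acidifies it, and the transcription factors TFEB, TFE3 and MITF raise many of these genes through E-box motifs near their start sites. In tumours, macrophages are a rich source of lysosomal proteases, and cathepsins outside the cell can cut matrix.

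Promoter windows from RefSeq (GRCm38.p6), from 250 bases before to 50 bases after the annotated start site, were at hand for 41 of the 46 genes, in 49 windows of 300 bases. The E-box CACGTG, a palindrome that reads the same on both strands, was found in at least 1 window of 14 of these 41 genes, or 34.1%. Among the 10117 tested rows with a window the share was 11.6%, and among all 32851 windows it was 7.15%, against 28.6% of the members' windows. TCACGTG, the form with a T before the E-box, searched on both strands and always overlapping CACGTG, was found in 12 genes (29.3%, against 6.92% of the tested rows). The consensus of the coordinated lysosomal expression and regulation (CLEAR) element, the E-box with GT before it and AC after it, was found in 1 gene, Cln3 (2.44%, against 0.781%). GAGGAAGT, a core bound by the myeloid factor PU.1, searched on both strands, was found in 4 genes, Ctss, Ctsc, Gusb and Gla (9.76%, against 3.93%). These matches are descriptions of the letters in the windows and were given no test.

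The sequences below are the stretches that hold these motifs in the genes the results turn on, written 5′ to 3′ on the gene's strand, with the motif or its reverse complement in capitals. Ctsd, the aspartic protease cathepsin D, lies on the minus strand (stretch chr7:142387828-142387937), and Lamp1, a main glycoprotein of the lysosomal membrane, on the plus strand (chr8:13159081-13159160). The stretch of Mcoln1, the calcium channel mucolipin 1, is chr8:3500429-3500518 on the plus strand, and that of Ctsa, the carboxypeptidase that also shields other hydrolases, is chr2:164833743-164833772 on the plus strand. Cln3, a membrane protein mutated in Batten disease, is on the minus strand (chr7:126583340-126583369). Ctsc, cathepsin C, which activates serine proteases of immune cells, is on the plus strand (chr7:88277923-88277952) and is shown for its PU.1 core, which reads on the opposite strand here.
Ctsd: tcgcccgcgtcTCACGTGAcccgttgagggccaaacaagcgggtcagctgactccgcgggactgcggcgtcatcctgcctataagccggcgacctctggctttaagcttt
Lamp1: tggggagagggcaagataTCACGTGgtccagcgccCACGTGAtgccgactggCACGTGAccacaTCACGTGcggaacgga
Mcoln1: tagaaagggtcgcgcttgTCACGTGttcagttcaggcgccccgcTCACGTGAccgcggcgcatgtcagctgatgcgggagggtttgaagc
Ctsa: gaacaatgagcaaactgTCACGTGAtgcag
Cln3: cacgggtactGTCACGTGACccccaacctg
Ctsc: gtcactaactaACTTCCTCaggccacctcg

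Lamp1 held 4 E-boxes, more than any other of these genes, all between positions -61 and -15 with the first transcribed base counted as 0. Ctsd had sites at -98 and -245, Mcoln1 at -45 and -71, Cln3 at -121 and -149, and Ctsa at 5 and -12. Cln3, Ctsa and Lgmn each had 2 windows, of which only 1 held the motif. Their positions refer to the start site of that window, which lay inside the annotated gene. Gla also had 2 sites, and Arsa, Gaa, Glb1, Lgmn, Naglu, Sgsh, Ctsf and Ctsl had 1 each, those of Ctsf and Ctsl without the flanking T. The 12 genes with TCACGTG had a median difference between the groups of 0.08 (log2, P.T.ATBx minus Control) with 10 positive values, and the 29 without it had a median of 0.02 with 18 positive values. Over all tested rows the medians were 0.02 for the 700 rows with the motif, of which 57.9% were positive, and 0.00 for the 9417 without it, of which 51.6% were positive. The lysosomal genes with and without TCACGTG both held positive and negative values. For CACGTG in any form the split was smaller. Of the 14 genes with it 10 were positive (71.4%, median 0.07), and of the 27 without it 18 (66.7%, median 0.02). Ctsf and Ctsl, whose E-box lacks the flanking T, were both negative. For the PU.1 core, 2 of 4 genes with it and 26 of 37 without it were positive.

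**Figure D1:**
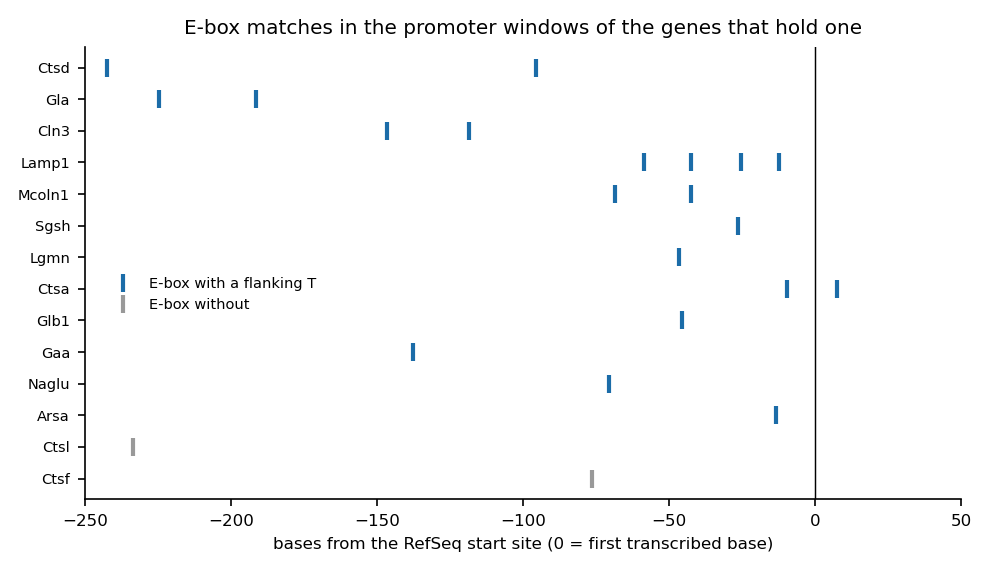
Positions of the E-box CACGTG in the promoter windows of the 14 lysosomal genes that have one, in bases from the start site on the horizontal axis, 1 row per gene. Blue points are sites with the flanking T (TCACGTG on either strand) and grey points are sites without it (Ctsl and Ctsf). Lamp1 holds 4 sites within 61 bases of its start, and Ctsa has 1 site on each side of 1 of its 2 annotated starts.

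These genes were expressed over a 522-fold range. The highest was Cd63, a tetraspanin of late endosomes and exosomes, with a mean of 968 FPKM over the 20 libraries. It was followed by Psap, the precursor of the saposins (858 FPKM), Ctss, the cysteine protease of antigen-presenting cells (803 FPKM), Ctsd (521 FPKM) and Ctsl, cathepsin L (485 FPKM). Together these 5 carried 54.1% of the summed FPKM of the 46 genes. The lowest was Ctsf, cathepsin F, at 1.85 FPKM, and Idua, the iduronidase that degrades heparan and dermatan sulfate, was next at 5.76 FPKM. The median gene stood at 45.1 FPKM, 14 genes were above 100 FPKM, 19 lay in the top 10% of all tested rows and 8 lay below the median row.

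By role, the cysteine proteases ran from 1.85 to 803 FPKM, the glycosidases from 5.76 to 158 FPKM (Hexa, which acts on GM2 ganglioside) and the sulfatases from 7.47 FPKM (Sgsh, which removes N-linked sulfate from heparan sulfate) to 42.3 FPKM (Arsa, arylsulfatase A). Sulfatases and most glycosidases were thus far below the leading proteases. In Control the median coefficient of variation was 10.0%. Scarb2, a membrane glycoprotein that acts as a sorting receptor, varied least (3.09%), followed by Gusb, beta-glucuronidase (3.84%), and Arsa (3.93%). Only Ctsf (34.3%) and Ctsk, cathepsin K (31.8%), exceeded 20%. The 46 genes made up 0.917% to 1.23% of the summed FPKM of a Control library (median 1.13%) and 0.959% to 1.34% in P.T.ATBx (median 1.13%), so their total overlapped between the groups.

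**Figure D2:**
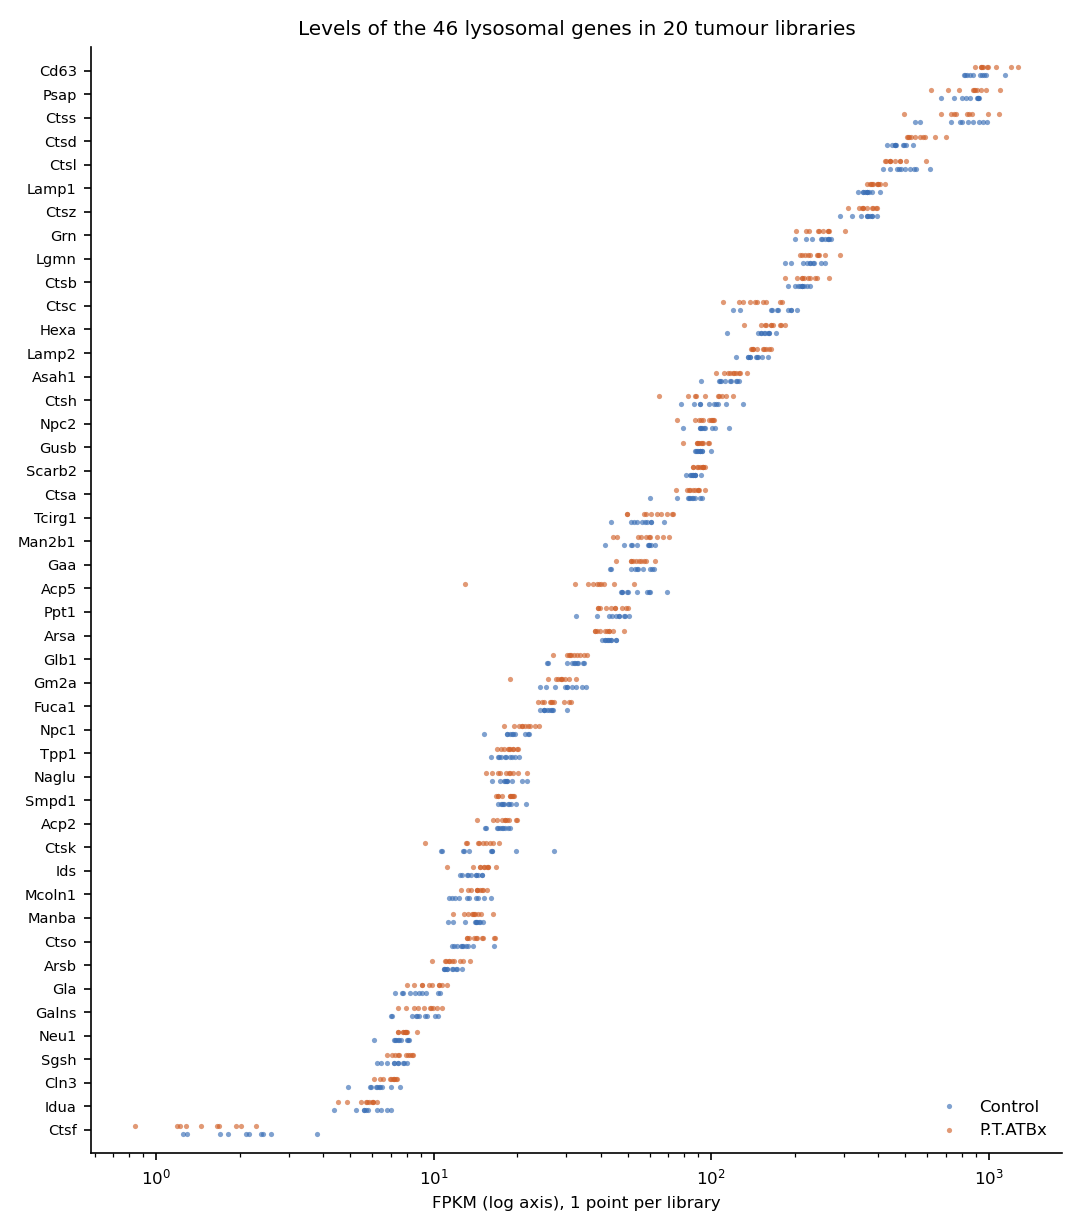
FPKM of each of the 46 genes in each of the 20 libraries, on a log axis, with genes ordered by mean level and points coloured by group. Cd63, Psap and Ctss lead at means of 803 to 968 FPKM and Ctsf is lowest at 1.85 FPKM, and the spread within a gene is small beside the differences between genes.

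The comparison of P.T.ATBx with Control asks whether treatment beside the tumour changed its RNA. Of the 46 genes, 1 was higher in P.T.ATBx past an adjusted p of 0.05 (Ctsd) and none was lower, by limma over all tested rows. Of all tested rows, 0.845% passed, 0.461% (59 rows) higher and 0.383% (49 rows) lower, and 20 and 29 rows did so when each library was rescaled to 1 sum. At an unadjusted p under 0.05 the 46 genes counted 7 higher and 3 lower, together 21.7% of them. Of all tested rows 13.6% were under it, 7.51% higher and 6.08% lower. The 95% intervals of the difference lay within 1.25-fold either way for 41 genes and within 1.5-fold for 45. The intervals that reached past 1.25-fold were those of Acp5, Ctsc, Ctsf, Ctsk and Ctsd. In no gene were the groups fully separate, beside 0.133% of all rows where they were (0.0704% with P.T.ATBx higher and 0.0626% with it lower).

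The difference was positive for 32 genes (69.6%) and negative for 14, with a median of 0.04 on the log2(FPKM + 1) scale. Over all tested rows 51.5% were positive and the median was 0.00. The median depended on a few libraries. It was 0.01, with 26 genes positive, without Control replicates 1 and 3, which stand apart in composition, 0.02 without Control replicate 3 alone and 0.07 without P.T.ATBx replicate 2. With the macrophage score described further on as a covariate it was 0.06.

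**Figure D3:**
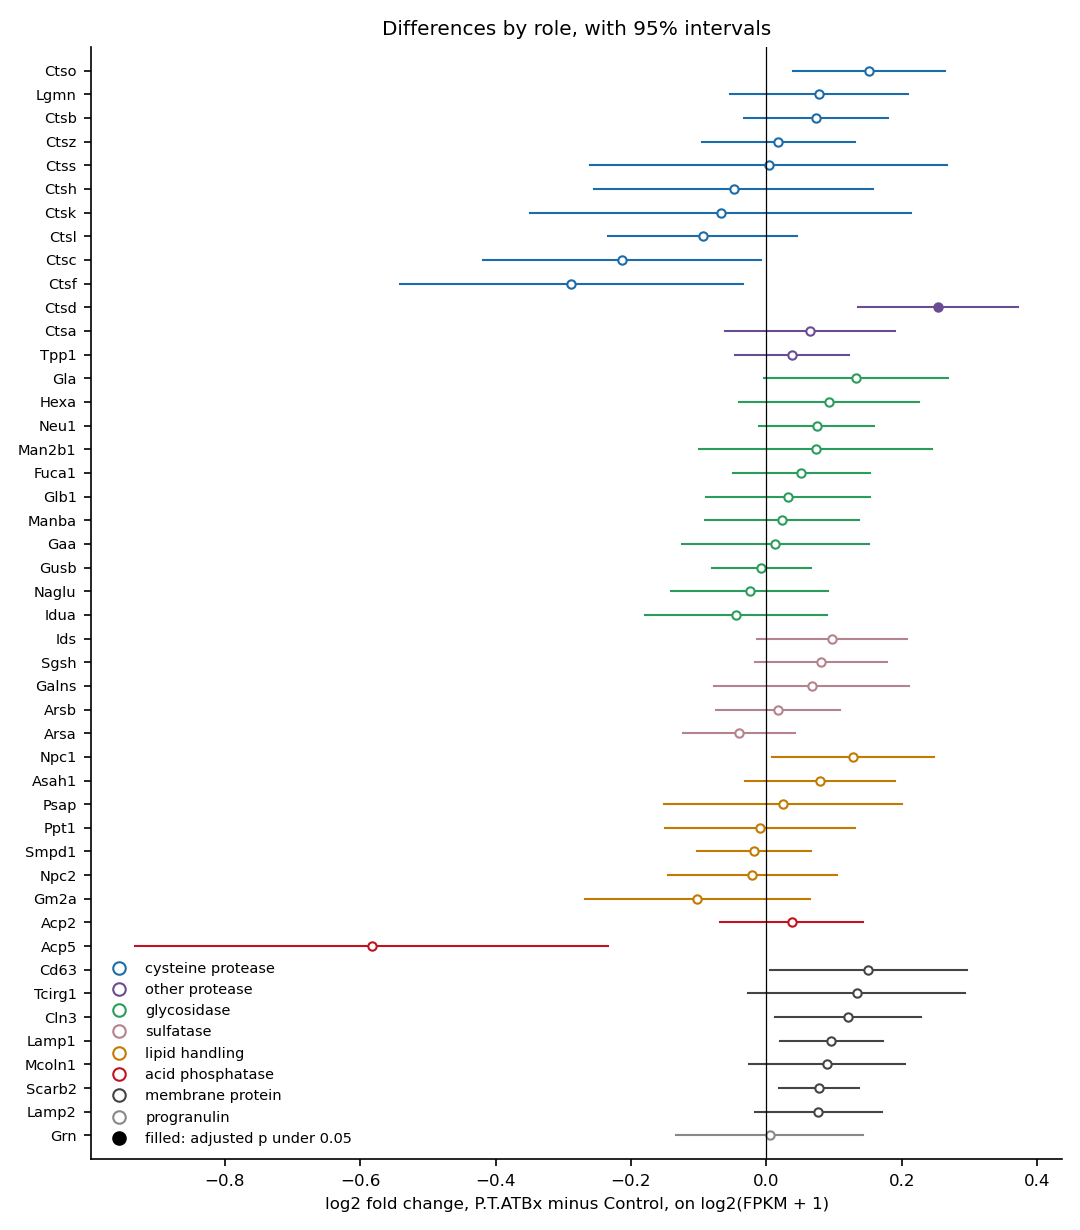
Difference between P.T.ATBx and Control for each of the 46 genes on the log2(FPKM + 1) scale, with 95% intervals, grouped by role. A filled point marks an adjusted p under 0.05, which Ctsd alone reached, at 0.25. All 7 membrane proteins lie to the right of 0, and Acp5 at -0.58 has the widest interval.

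Ctsd (chr7:142375910-142387827 in the RefSeq annotation of GRCm38) encodes cathepsin D, the main aspartic protease of the lysosome. In Control it stood at 432 FPKM in the lowest library, 462 at the median and 535 in the highest, and in P.T.ATBx at 509, 554 and 700. All 10 P.T.ATBx libraries were above the Control median, 6 were above the highest Control library, and 9 Control libraries were below the lowest P.T.ATBx library. The means were 475 ± 30.4 FPKM and 568 ± 62.7 FPKM (SD, n = 10 each), a difference of 0.25 (SE 0.06, 95% interval 0.14 to 0.37). The difference kept between 0.22 and 0.29 in every alternative, but it no longer passed the threshold with a fibroblast score as a covariate (0.24). It also missed when 1 of Control replicates 5, 7, 8, 9 and 10 or P.T.ATBx replicates 1, 3, 4 and 10 was left out. Without the 2 libraries that stand apart it was 0.29 and passed.

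The other proteases outside the cysteine class showed smaller differences. Ctsa stood at 60.2, 84.6 and 92.4 FPKM in the lowest, median and highest Control library and at 74.9, 86.7 and 94.7 FPKM in P.T.ATBx, a difference of 0.06 (95% interval -0.06 to 0.19). Tpp1, the tripeptidyl peptidase that trims peptides from their N-terminus, stood at 16.1, 18.1 and 20.3 FPKM against 17.0, 18.8 and 20.2 FPKM, a difference of 0.04. The groups overlapped almost wholly for both.

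The 7 membrane proteins all had positive values, from 0.08 to 0.15 with a median of 0.10, and none passed the threshold. All 7 stayed positive in every alternative setting, but several moved closer to 0. With the fibroblast score as a covariate Lamp1 was at 0.06, Lamp2 at 0.02 and Cd63 at 0.05, and without the 2 libraries that stand apart Mcoln1 was at 0.05, Tcirg1 at 0.08 and Cln3 at 0.07. Lamp1 (chr8:13159161-13175338) was at 337, 364 and 406 FPKM in the lowest, median and highest Control library and at 366, 390 and 425 FPKM in P.T.ATBx. All 10 P.T.ATBx libraries were above the Control median, and 7 Control libraries were below the lowest of P.T.ATBx. The difference was 0.10 (SE 0.04, 95% interval 0.02 to 0.17), and the groups overlapped through the remaining Control libraries. Scarb2 (chr5:92441311-92505657) was at 81.3, 86.0 and 91.5 FPKM against 85.9, 91.8 and 95.3 FPKM, with 9 of 10 P.T.ATBx libraries above the Control median and a difference of 0.08 (SE 0.03, 95% interval 0.02 to 0.14).

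Cd63 (chr10:128896231-128912822) was at 817, 905 and 1146 FPKM in Control and at 891, 972 and 1274 FPKM in P.T.ATBx, a difference of 0.15 (SE 0.07, 95% interval 0.00 to 0.30). Its highest Control library, replicate 1, is 1 of the 2 that stand apart. Cln3 was at 4.92, 6.28 and 7.57 FPKM against 6.11, 7.08 and 7.36 FPKM, so the top Control library exceeded every P.T.ATBx library, with a difference of 0.12 (95% interval 0.01 to 0.23). Lamp2, the second main membrane glycoprotein and a receptor of chaperone-mediated autophagy, differed by 0.08, Mcoln1 by 0.09 and Tcirg1, a subunit of the proton pump prominent in osteoclasts, by 0.13. The intervals of these last 3 included 0.

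The 10 cysteine proteases were divided, with 5 positive and 5 negative values and a median of -0.02. Ctso (chr3:81932601-81956725), cathepsin O, was at 11.7, 12.7 and 16.4 FPKM in Control and 13.2, 14.3 and 16.6 FPKM in P.T.ATBx. All 10 P.T.ATBx libraries were above the Control median, and the difference was 0.15 (SE 0.05, 95% interval 0.04 to 0.26). Control replicate 1 was far above the other Control libraries, and without it the difference was 0.19 and passed the threshold. With the fibroblast score as a covariate it was 0.09 and did not. In the opposite direction, Ctsc (chr7:88278024-88315861) was at 120, 173 and 204 FPKM in Control and 110, 145 and 180 FPKM in P.T.ATBx. Its difference was -0.21 (SE 0.10, 95% interval -0.42 to -0.01), and 8 of the 10 treated libraries were under the Control median. Ctsf was at 1.25, 2.14 and 3.79 FPKM against 0.842, 1.56 and 2.30 FPKM, and 9 of 10 were under the Control median, a difference of -0.29 (95% interval -0.54 to -0.03).

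Ctss and Ctsk, neighbours on chromosome 3 (chr3:95526786-95556405 and chr3:95499210-95509387), gave no sign of a shift in the mean but wide intervals. Ctss was at 543, 819 and 984 FPKM in Control and 497, 799 and 1085 FPKM in P.T.ATBx, a difference of 0.00 with a 95% interval of -0.26 to 0.27. Ctsk, the collagen-cutting protease of osteoclasts and fibroblasts, was at 10.6, 14.8 and 27.2 FPKM against 9.32, 14.8 and 17.1 FPKM, a difference of -0.07 (95% interval -0.35 to 0.21). Both groups spread more widely than they differed. Ctsl differed by -0.09, Ctsh, an aminopeptidase, by -0.05, Ctsz, a carboxypeptidase, by 0.02, Ctsb, cathepsin B, by 0.07 and Lgmn, the asparaginyl endopeptidase legumain that matures other cathepsins, by 0.08. All 5 of these intervals included 0.

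**Figure D4:**
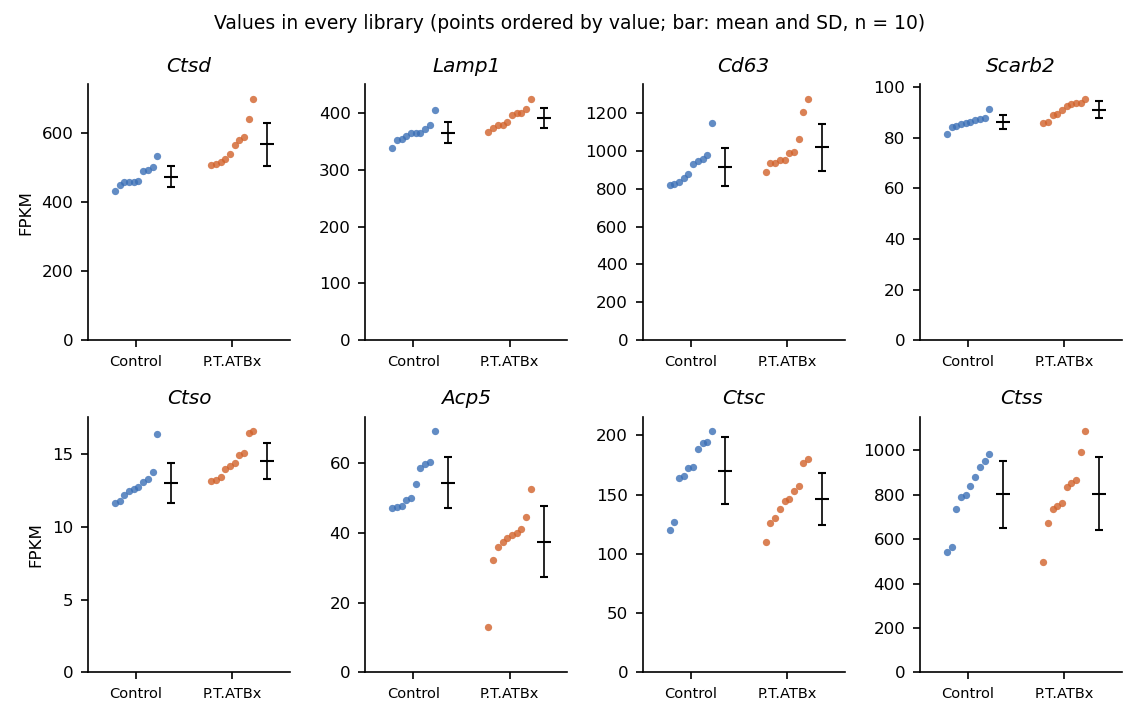
FPKM of Ctsd, Lamp1, Cd63, Scarb2, Ctso, Acp5, Ctsc and Ctss in each library, by group, with the vertical axis from 0. Points are libraries, and the bar and its error show the mean and SD of 10 libraries. Of the P.T.ATBx libraries, 9 lie below every Control library for Acp5 and 6 lie above every Control library for Ctsd, while Ctss is as widely spread in both groups.

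Acp5 (chr9:22126727-22135746), the tartrate-resistant acid phosphatase of osteoclasts and some macrophages, had the most negative difference of the 46 genes. It was at 47.2, 52.1 and 69.3 FPKM in the lowest, median and highest Control library and at 13.0, 39.1 and 52.5 FPKM in P.T.ATBx. In 9 of 10 P.T.ATBx libraries it was below the lowest Control library, the exception being replicate 6 at 52.5 FPKM. The means were 54.5 ± 7.35 and 37.5 ± 10.2 FPKM (SD, n = 10 each), a difference of -0.58 (SE 0.17, 95% interval -0.93 to -0.23) that did not pass the threshold.

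The Acp5 call turned on P.T.ATBx replicate 2, whose 13.0 FPKM lay far below the next library at 32.3 FPKM. Without that library the difference was smaller, -0.43, and passed, and it also passed with the macrophage score as a covariate (-0.51). Leaving out a library because it was extreme is no test of the difference. Osteoclast markers gave low levels in both groups. The 7 tested of 9 included 6 negative values and none past the threshold by limma. At an unadjusted p under 0.05, 3 were lower and 1 higher, together 57.1% of the 7. Of all tested rows 13.6% were under it, 6.08% lower and 7.51% higher. The osteoclast list summed to 27.8 to 35.7 FPKM in Control and 21.4 to 35.2 FPKM in P.T.ATBx. The 1 higher was Atp6v0d2, and Calcr was listed at 0 in every Control library. The part of these markers in the Acp5 difference was not tested. Acp2, the other acid phosphatase, was at 15.3, 17.5 and 18.9 FPKM against 14.4, 18.1 and 19.9 FPKM, a difference of 0.04.

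The glycosidases, which remove sugars from glycoproteins, glycolipids and glycosaminoglycans, had 8 positive values of 11, from -0.04 to 0.13. Gla, alpha-galactosidase A, was at 7.23, 8.70 and 10.6 FPKM in Control and at 8.03, 9.73 and 11.1 FPKM in P.T.ATBx, a difference of 0.13 (95% interval -0.00 to 0.27). Neu1, the sialidase that works in a complex with Ctsa, was at 6.10, 7.47 and 8.12 FPKM against 7.45, 7.88 and 8.70 FPKM, a difference of 0.07. Hexa was at 114, 156 and 172 FPKM against 131, 165 and 184 FPKM, a difference of 0.09. For each of these 3 genes 8 of 10 P.T.ATBx libraries were above the Control median, and the lowest Control value of Neu1 and of Hexa came from replicate 3.

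The remaining glycosidases were closer to 0. Man2b1 and Manba, the alpha- and beta-mannosidases, differed by 0.07 and 0.02, Fuca1, the fucosidase, by 0.05, and Glb1, the beta-galactosidase, by 0.03. Gaa, which breaks down glycogen, differed by 0.01, Gusb by -0.01, Naglu, an enzyme of heparan sulfate breakdown, by -0.02 and Idua by -0.04. The interval for Gusb, -0.08 to 0.07, was among the narrowest of all 46 genes.

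Of the 5 sulfatases 4 had positive values. Ids, iduronate 2-sulfatase, was at 12.4, 13.9 and 15.0 FPKM in Control and 11.2, 15.2 and 16.8 FPKM in P.T.ATBx, where 6 libraries exceeded the highest Control library and 1 was below the lowest. Sgsh was at 6.23, 7.30 and 8.03 FPKM against 6.76, 7.71 and 8.46 FPKM, a difference of 0.08 with an interval of -0.02 to 0.18. Arsa was at 40.3, 42.5 and 45.5 FPKM against 38.1, 41.9 and 48.7 FPKM, a difference of -0.04. Galns and Arsb, which act on keratan and dermatan sulfate, differed by 0.07 and 0.02. None of the 5 intervals excluded 0.

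The genes of lipid handling had 3 positive values of 7. Npc1, the membrane protein that exports cholesterol, was at 15.2, 19.3 and 22.0 FPKM in Control and 18.0, 21.1 and 24.0 FPKM in P.T.ATBx. Of the P.T.ATBx libraries 9 of 10 were above the Control median, and the difference was 0.13 (95% interval 0.01 to 0.25). Npc2, its soluble partner, differed by -0.02. Asah1, acid ceramidase, was at 91.9, 114 and 126 FPKM against 104, 121 and 135 FPKM, a difference of 0.08. Gm2a, the activator that presents GM2 ganglioside for breakdown, was at 24.1, 30.2 and 35.4 FPKM against 18.9, 28.8 and 32.6 FPKM, a difference of -0.10 with an interval of -0.27 to 0.06. Psap differed by 0.02, Smpd1, acid sphingomyelinase, by -0.02 and Ppt1, the thioesterase that removes fatty acids from proteins, by -0.01. Grn, progranulin, which is cut to granulins in the lysosome, was at 200, 255 and 270 FPKM against 203, 249 and 302 FPKM, a difference of 0.00 (95% interval -0.13 to 0.14).

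Variation within each group of 10 was compared with marker scores for macrophages (15 markers) and fibroblasts (9 markers). The difference between the groups does not enter it, but the genes and markers were chosen with earlier results of these data known. A score is the mean of the centred log2 values of its markers, and 184 relations were tested together by permutation with Benjamini-Hochberg adjustment. The points of each relation share their library and its scaling. Cd68 and Lyz2, in the macrophage score, are also in the lists of other lysosomal genes counted further on. A score without them was not tried. With the macrophage score, 40 of the 46 genes had a positive Pearson r in each group. The Control median of r was 0.37 and that of P.T.ATBx 0.59, and 5 genes passed in Control and 13 in P.T.ATBx by Pearson. By Spearman none of the 5 and 4 of the 13 also passed. The difference between the groups in these counts was not tested. Relations were computed for the 46 genes only, so no share over all tested rows stands beside the counts for either score. The counts are therefore not read as particular to lysosomal genes.

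The genes that passed in both groups were Ctsc, Ctsh, Ctss, Gm2a and Npc2, all 5 of those in Control and 5 of the 13 in P.T.ATBx. Ctss gave r = 0.84 in Control (permutation p = 0.00286, adjusted 0.0310) with rho = 0.73 (permutation p = 0.0197, adjusted 0.116), and r was 0.59 without Control replicates 2 and 3. In P.T.ATBx it gave r = 0.97 (permutation p = 2e-05, adjusted 0.00184) with rho = 0.96 (permutation p = 3e-05, adjusted 0.00429), and r was 0.89 without replicates 2 and 5. Ctsc gave r = 0.86 in Control (permutation p = 0.00156, adjusted 0.0253, rho = 0.67, p = 0.0382, adjusted 0.161), and this rested on replicates 2 and 3, without which r was 0.48. In P.T.ATBx Ctsc gave r = 0.95 (permutation p = 2e-05, adjusted 0.00184, rho = 0.96, p = 6e-05, adjusted 0.00429) and 0.93 without replicates 2 and 5. Both are proteases of antigen-presenting and other immune cells, and in P.T.ATBx neither relation rested on the extreme libraries.

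Ctsh gave r = 0.81 in Control (permutation adjusted p = 0.0369, rho = 0.73) and 0.90 in P.T.ATBx (adjusted 0.0184, rho = 0.76), and 0.68 and 0.65 without the same libraries. Gm2a gave r = 0.85 in Control (permutation adjusted p = 0.0248, rho = 0.82) and 0.91 in P.T.ATBx (adjusted 0.0230, rho = 0.88), and 0.60 and 0.82 without them. Npc2 gave r = 0.80 in Control (permutation adjusted p = 0.0438, rho = 0.73) and 0.85 in P.T.ATBx (adjusted 0.0369, rho = 0.72), and 0.60 and 0.48 without them, so that in P.T.ATBx it rested on replicates 2 and 5.

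Ctsd, the gene past the threshold between the groups, was among those with no relation past the threshold (r = 0.09 in Control and 0.50 in P.T.ATBx, permutation adjusted p = 0.898 and 0.359). Ctsl was the lowest, with r = -0.51 and -0.67, and neither value passed (adjusted 0.359 and 0.194). When libraries were rescaled to 1 sum these became 0.00 and -0.16, so the size of r for Ctsl depends on the scaling. Ctss, Ctsc, Gm2a and Npc2 passed in both groups under that rescaling too, and Ctsh did so in P.T.ATBx only (adjusted 0.0303, against 0.0706 in Control). The counts rose under it to 19 and 29 genes. The rescaling divides a gene and the score by the same sum, which can raise r by itself. Passing under it therefore adds no support to these relations.

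With the fibroblast score 4 genes passed in each group, all negative: Hexa, Asah1, Lamp1 and Lamp2 in Control and Ctso, Fuca1, Asah1 and Cd63 in P.T.ATBx. By Spearman none of the 4 in Control and 1 of the 4 in P.T.ATBx, Asah1, also passed. Without P.T.ATBx replicates 1 and 4, r went from -0.84 to -0.45 for Ctso, from -0.82 to -0.48 for Fuca1 and from -0.89 to -0.52 for Cd63. These relations thus rested in part on those libraries. Without Control replicates 3 and 9, r was -0.73 for Hexa, -0.59 for Lamp1 and -0.66 for Lamp2. Asah1, the gene in both, gave r = -0.83 in Control (permutation adjusted p = 0.0285, rho = -0.77, adjusted 0.114) and -0.87 in P.T.ATBx (adjusted 0.0248, rho = -0.88, adjusted 0.0497). Without the 2 libraries farthest from the median score r was -0.71 and -0.89. Rescaled to 1 sum, r for Asah1 was 0.20 and 0.15, so the negative relation is not kept under that scaling. The cause was not tested.

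**Figure D5:**
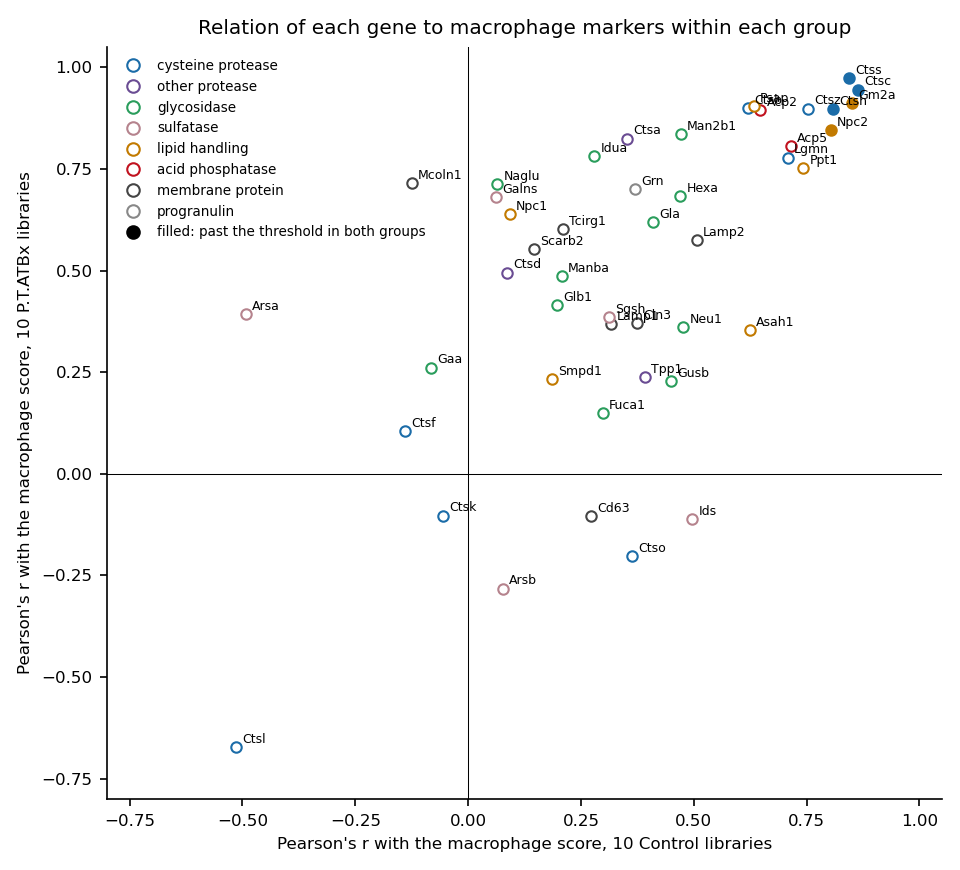
Pearson r of each of the 46 genes with the macrophage marker score, in the 10 Control libraries on the horizontal axis and the 10 P.T.ATBx libraries on the vertical axis. Filled points are the 5 genes past the threshold in both groups (Ctsc, Ctsh, Ctss, Gm2a and Npc2). Most genes lie to the upper right of 0 on both axes, and Ctsl, at -0.51 and -0.67, lies lowest.

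The macrophage markers themselves gave no call by limma (15 tested, 3 at an unadjusted p under 0.05) and had 7 positive and 8 negative values with a median of -0.04. None of the 15 was at 0, and their summed level ran from 2569 to 4236 FPKM in Control and from 2399 to 3826 FPKM in P.T.ATBx. Of 9 fibroblast markers 7 were negative and 1 was lower past the threshold, Dcn, and their list summed to 2668 to 3617 FPKM in Control and 2475 to 3784 FPKM in P.T.ATBx. Postn was listed at 0 in all 20 libraries and was not tested. Of 10 markers of lipid-associated macrophages 6 were negative and the median was -0.13, with 4 higher and 2 lower at an unadjusted p under 0.05. The 1 past the threshold, Gpnmb, a glycoprotein of late endosomes and lysosomes, rose from 22.8 ± 3.03 to 44.3 ± 16.8 FPKM (SD, n = 10 each), a difference of 0.86 (SE 0.15, limma adjusted p = 0.00622). The part of these cells in the lysosomal differences was not tested beyond the fits with a score as a covariate.

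Other genes of lysosome function were counted in 7 lists, 171 tested genes in all, and none passed the threshold by limma. At an unadjusted p under 0.05, 17 were higher and 3 lower, together 11.7% of the 171. Of all tested rows 13.6% were under it, 7.51% higher and 6.08% lower. Positive values were found for 119 of the 171 (69.6%, beside 51.5% of all tested rows). The lists were chosen with results of these data known, so these counts are a description. Among 24 MiT-TFE factors and their controllers 15 were positive, with a median of 0.01. Tfeb, the master factor of lysosome genes, was at 4.18 ± 0.424 FPKM in Control and 4.61 ± 0.398 FPKM in P.T.ATBx, a difference of 0.12 (SE 0.05, limma adjusted p = 0.326), and 9 of 10 treated libraries lay above the Control median. Tfe3 and Mitf, the related factors, differed by -0.03 and 0.06 (limma adjusted p = 0.872 and 0.669), and Ppp3cb, a catalytic subunit of calcineurin, which activates TFEB, by 0.08 (adjusted p = 0.411).

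Among 19 subunits of the V-ATPase, the proton pump, 14 were positive, and the values ran from -0.27 to 0.73. The lowest was Atp6v1b1, a subunit with a low level, at 0.703 ± 0.644 FPKM in Control and 0.342 ± 0.137 FPKM in P.T.ATBx (limma adjusted p = 0.459). The highest was Atp6v0d2, a d subunit found in osteoclasts and macrophages, at 1.53 ± 0.643 FPKM in Control and 3.38 ± 1.65 FPKM in P.T.ATBx, a difference of 0.73 (SE 0.20, 95% interval 0.32 to 1.15, limma adjusted p = 0.0853). It was above the Control median in 9 of 10 P.T.ATBx libraries, and this was opposite in sign to Acp5, another gene of osteoclasts. Atp6v0a2 differed by -0.06 (limma adjusted p = 0.417).

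In a list of 34 further genes, mostly lysosomal hydrolases, 27 were positive, with 5 higher and 2 lower at an unadjusted p under 0.05. Naaa, which hydrolyses N-acylethanolamines, was at 23.1 ± 2.87 FPKM in Control and 19.5 ± 1.83 FPKM in P.T.ATBx, a difference of -0.23 (SE 0.07, limma adjusted p = 0.117), and no P.T.ATBx library was above the Control median. Aga, which cleaves glycoasparagines, differed by 0.14 (adjusted p = 0.184).

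Of 29 further membrane proteins 21 were positive, and 6 were higher and none lower at an unadjusted p under 0.05. Ctns, the cystine exporter, differed by 0.16 and Cd68, a macrophage glycoprotein that is also among the macrophage markers, by 0.17 (limma adjusted p = 0.106 and 0.129). Among 31 genes of sorting to the lysosome 21 were positive. Arl8b, a small GTPase that moves lysosomes outward, differed by 0.10 (adjusted p = 0.125), Vps11, a tethering subunit, by 0.09 (adjusted p = 0.350) and Igf2r, the large mannose 6-phosphate receptor, by 0.11 with a 95% interval of -0.13 to 0.35 (adjusted p = 0.717).

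Of 6 tested genes in a list of protease inhibitors, which held serpins as well as cystatins, 3 were positive. Cst7, cystatin F, which restrains Ctsc, differed by -0.35 (limma adjusted p = 0.381) and Serpinb6b, a serpin, by -0.19 (adjusted p = 0.349). Cst3, the secreted cystatin C, was at 531 ± 79.9 and 562 ± 63.9 FPKM, a difference of 0.09 (adjusted p = 0.670). Among 28 genes of macroautophagy 18 were positive. Becn1, a core of the initiating lipid kinase complex, differed by 0.07 (adjusted p = 0.184) with all 10 P.T.ATBx libraries above the Control median, and Atg3, which conjugates LC3 to lipid, by 0.12 (adjusted p = 0.313).

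The summed FPKM per library ran from 556770 to 752782 and the upper quartile of FPKM from 13.4 to 14.1. Rpph1 and Rmrp, non-coding RNAs of ribonuclease complexes, made up 7.75% to 20.5% of the summed FPKM. The 2 libraries that stand apart, Control replicates 1 and 3, had mean Spearman correlations with the others of 0.975 and 0.968, beside a median of 0.983. Adipocyte markers summed to 19.7 to 2329 FPKM in Control and 39.5 to 545 FPKM in P.T.ATBx, with none of 6 past the threshold by limma and none at an unadjusted p under 0.05. Epithelial markers summed to 4.06 to 184 FPKM in Control and 12.2 to 55.7 FPKM in P.T.ATBx, with all 6 negative, none past the threshold and 1 at an unadjusted p under 0.05. The part of these in the lysosomal differences was not tested.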

How the data were processed

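RNA-seq of 20 tumour libraries was read from 1 table of FPKM values deposited by the authors, with 1 column per library. Columns were mapped by the library number in the labels, and no column was left unmapped. Per the labels' protocols, the libraries came from a stranded total RNA kit. The build was mm10, per the submitters' processing notes. Which aligner, quantifier and annotation were used is not given in the sources used here. Read totals are unknown, so no counting interval is given, and an exact 0 may be a failed estimate. Of 23402 rows, 4814 were at 0 throughout, and 12788 with a mean FPKM of at least 0.5 were tested as log2(FPKM + 1) in limma 3.58.1 (R 4.3.3), with group as the only term, robust and trended moderation, two-sided tests and Benjamini-Hochberg adjustment at 0.05. Fold changes on this scale understate low genes. On simulated data of this comparison with 12788 genes, 62% of 50 genes changed 1.25-fold were recovered, 98% at 1.5-fold, 100% at 2-fold and at 4-fold, with 5 false among 185 calls. The simulation shuffled values gene by gene, so it kept neither the correlation between genes nor the libraries that stand apart. None of the lowest genes was among those changed. These shares may therefore not hold for the real libraries.

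The 46 genes, the other lists, the markers and the motifs were chosen with earlier results of these data known. Every one of the 46 is named. Values by library are given for those past the threshold and for up to 3 per role with the smallest unadjusted p, and a few others (Cd63, Ctss, Ctsk, Grn, Atp6v1b1) were added after their values were seen. Each other list names every gene past the threshold, up to 4, or otherwise the 2 smallest p, plus Tfeb, Tfe3, Mitf, Igf2r, Gpnmb and Cst3. Some other genes of the rule are not reported here. Relations used 100000 permutations. Motifs were searched with Python 3.11.15 in RefSeq promoter windows of GRCm38. Alternatives changed the pseudocount (0.1), the filter (none, or 1), the scaling, weights, moderation, a replicate block, covariates and the libraries left out. Same-numbered libraries were not paired by the labels.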

Additional observations from a re-analysis of the deposited data

Results flagged for a closer look

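Single libraries far from the rest of their group of 10 (a gap to the nearest library above Dixon's 95% limit for the group's range) were found 20 times in 112 sets of 1 gene in 1 group. For independent, normally spread values chance flags about 1 in 20 such sets, or 5.6 here. These sets share the same 20 libraries and are not independent, so 20 beside 5.6 is no measure of an excess. Control replicate 1 accounted for 6 and Control replicate 3 for 4, the 2 libraries that stand apart in composition, and P.T.ATBx replicate 2 accounted for 4.

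Control replicate 1 was high for Ctso (16.4 FPKM, next 13.8), Fuca1 (30.2, next 26.9), Cd63 (1146, next 977) and the inhibitor Cst3 (746, next 554). It was low for Npc1 (15.2 FPKM, next 18.4) and the sorting receptor Igf2r (12.2, next 19.4). Control replicate 3 was low for Ctsa (60.2 FPKM, next 75.1), Hexa (114, next 148), Neu1 (6.10, next 7.17) and Asah1 (91.9, next 107).

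P.T.ATBx replicate 2 was low for Acp5 (13.0 FPKM, next 32.3), Gm2a (18.9, next 25.9) and Npc2 (75.1, next 87.3) and high for Ctsl (593, next 502). P.T.ATBx replicate 4 was low for Ctsk (9.32 FPKM, next 13.0) and high for Neu1 (8.70, next 8.03). Gusb was high in Control replicate 5 (100.1 FPKM, next 92.7) and low in P.T.ATBx replicate 9 (79.2, next 88.9). Ids was low in P.T.ATBx replicate 8 (11.2 FPKM, next 13.9) and Naaa in Control replicate 2 (16.6, next 21.6).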

How the results depend on the processing

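Over 33 alternatives for each of the 46 genes, 13 of 1518 values changed their side of the threshold (10 for Ctsd, 2 for Acp5, 1 for Ctso). The sign was kept in 28 genes and changed in some alternative in 18. Of the 46 genes, 0 to 2 were called higher and 0 to 1 lower when 1 library was left out, 0 higher with the fibroblast covariate, and 1 lower with the macrophage covariate. All rows gave 20 higher and 29 lower when rescaled to 1 sum, 154 and 152 with array weights, 95 and 85 with the macrophage covariate, 36 higher with the fibroblast covariate, 76 lower without the 2 libraries that stand apart, and 31 higher without the 4 libraries with the largest Rpph1 and Rmrp share, an alternative chosen after seeing the data. Leaving out 1 library gave 38 to 104 higher and 31 to 89 lower, the fewest without P.T.ATBx replicate 4 and the most without Control replicate 1. V-ATPase subunits had 1 higher call with array weights and the macrophage covariate and 0 to 1 with 1 library left out. The list of mostly other hydrolases had 1 lower call with the macrophage covariate and 0 to 1 with 1 library left out. Other membrane proteins had 1 higher without a filter and 2 with the macrophage covariate. Relations rescaled to 1 sum passed in 19 and 29 genes for macrophages and 6 and 12 for fibroblasts. The cause was not tested.

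The replicate block gave 1 gene of the 46 higher and 0 lower, 1 V-ATPase subunit higher, and 65 higher and 59 lower over all rows. Same-numbered libraries had correlations of their deviations from -0.31 to 0.39, above 0.1 for 5 of 10 numbers. Of the Control libraries, 3 of 10 correlated best with their own number. Whether the number paired libraries was not tested. Read depth behind these FPKM values is unknown, which limits what can be said of low genes such as Ctsf.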
